A study of Mus musculus with 3 samples.

Results

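The collagen genes were followed in maps of H3K4me1, histone H3 monomethylated at lysine 4, a mark of enhancers, made by chromatin immunoprecipitation and sequencing. The members were all protein-coding genes of chromosomes 1 to 19 whose RefSeq symbol reads Col, a number, the letter a and a number, 42 of 20665 protein-coding genes, and they were taken by symbol whatever their mark. They comprised 11 fibrillar genes, 4 basement membrane genes and 27 genes of other types, and the X-linked pair Col4a5 and Col4a6 lay outside the rule. The LONP1 AKO library came from primary adipocytes of male C57BL/6J mice with a knockout of LONP1, the Lon protease of the mitochondrial matrix, specific to adipocytes. The WT library came from adipocytes of male wild-type C57BL/6J control mice, and the same input library without antibody was the background of both peak lists. The Cre driver of the knockout, the fat depot, the ages and the number of mice per library are not given in the sources used here. With a single library of each genotype nothing measures replicate error, so no test of genotype was possible, and each difference below is one between these 2 libraries.

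Collagens are secreted trimers of alpha chains that form the scaffold of the extracellular matrix. In fat, each adipocyte is wrapped in a basement membrane built on type IV collagen, which is surrounded by types VI, I, III and V and remodelled as fat expands or turns thermogenic. Fibroblasts and progenitors of the tissue make much of the fibrillar collagen, while adipocytes, endothelial cells and pericytes lay down basement membrane collagens.

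The AKO library held 14733950 tags and the WT library 15015805 tags after duplicates were removed, an AKO to WT ratio of 0.981. The covered length of all peaks stood at a ratio of 0.736. Lonp1 itself carried 6.21 kb of peaks in AKO and 8.75 kb in WT, which does not check the knockout, since the deleted part is not given. Peaks were present at 8 of 8 adipocyte markers in both libraries, and also at 7 of 7 fibroblast and progenitor markers, 6 of 6 endothelial markers and 4 of 4 smooth muscle and pericyte markers. Of 5 macrophage markers only Csf1r and Cd68 had peaks, while Adgre1, Mrc1 and Cd163 had none in either library. Peaks were common, with 12567 of 20665 protein-coding genes having one in both libraries, so these counts alone do not show which cells were present. Summed coverage was 18.4 kb in AKO and 29.5 kb in WT for the adipocyte markers (per gene 0.27 to 5.71 kb in AKO and 0.995 to 7.82 kb in WT). The fibroblast and progenitor markers had 37.96 kb in AKO and 52.7 kb in WT (1.503 to 19.99 kb in AKO and 1.52 to 27.8 kb in WT). The endothelial markers had 9.76 kb in AKO and 19.8 kb in WT (0.366 to 4.03 kb in AKO and 0.847 to 7.61 kb in WT). The smooth muscle and pericyte markers had 17.8 kb in AKO and 25.0 kb in WT (0.29 to 15.3 kb in AKO and 0.287 to 21.5 kb in WT), and the macrophage markers 7.65 kb in AKO and 10.1 kb in WT (0 to 4.66 kb in AKO and 0 to 5.47 kb in WT). All 5 marker lists had less coverage in AKO, and their part in the collagen values was not tested. In such bulk samples fewer cells of a type and less mark per cell cannot be told apart.

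Coverage is given as the kb lying under peaks within a gene's body and 10 kb on each side of it. Longer genes have longer windows, so levels of different genes are set against each other per 100 kb of window, and sums, shares of a sum and differences in kb are named as such. A gene counts as lower in AKO where WT coverage exceeded AKO coverage by more than 2-fold and by 2 kb or more, and as higher where AKO exceeded WT by as much. This size rule takes the place of a test. The height of a peak is the number of overlapping DNA fragments at its summit, recovered from the deposited pileup, with an exact Poisson 95% interval that covers counting error only. The fold enrichment and −log10 q of a peak are the authors' own values.

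The start sites show how unevenly these genes were marked. The RefSeq promoter table of GRCm38.p6 (mm10) held a start site for 33 of the 42 members, each with a promoter of 300 bases, 250 before the start and 50 after it. Below are 7 of them, 5′ to 3′ on the strand of the gene. They were picked after their values were seen, because they show the heavily marked type IV pair whose shared start carried no peak, promoters lying wholly under peaks in both libraries, and chains of major fibrils with a bare start. Capitals mark CCAAT boxes (CCAAT or its reverse ATTGG), GC boxes (GGGCGG or CCGCCC) and TATA boxes (TATAAA or TTTATA), and no matches overlapped one another.
Col4a1: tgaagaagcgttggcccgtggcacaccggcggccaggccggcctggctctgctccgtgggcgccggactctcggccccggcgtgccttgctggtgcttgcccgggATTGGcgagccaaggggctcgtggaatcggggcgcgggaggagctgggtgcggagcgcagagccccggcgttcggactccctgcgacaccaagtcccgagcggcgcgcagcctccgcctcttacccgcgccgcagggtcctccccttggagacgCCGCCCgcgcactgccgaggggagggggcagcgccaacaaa
Col4a2: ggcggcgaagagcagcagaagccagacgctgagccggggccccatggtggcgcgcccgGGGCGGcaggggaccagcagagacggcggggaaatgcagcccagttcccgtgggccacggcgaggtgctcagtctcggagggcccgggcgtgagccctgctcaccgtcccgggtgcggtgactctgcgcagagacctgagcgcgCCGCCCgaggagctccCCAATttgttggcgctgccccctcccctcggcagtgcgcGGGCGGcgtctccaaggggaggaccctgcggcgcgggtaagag
Col4a4: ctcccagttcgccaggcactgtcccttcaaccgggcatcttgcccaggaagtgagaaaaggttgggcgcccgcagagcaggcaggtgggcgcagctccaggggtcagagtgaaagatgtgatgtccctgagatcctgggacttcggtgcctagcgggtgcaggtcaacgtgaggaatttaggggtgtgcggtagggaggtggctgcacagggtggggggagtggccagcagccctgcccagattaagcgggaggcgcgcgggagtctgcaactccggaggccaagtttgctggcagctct
Col7a1: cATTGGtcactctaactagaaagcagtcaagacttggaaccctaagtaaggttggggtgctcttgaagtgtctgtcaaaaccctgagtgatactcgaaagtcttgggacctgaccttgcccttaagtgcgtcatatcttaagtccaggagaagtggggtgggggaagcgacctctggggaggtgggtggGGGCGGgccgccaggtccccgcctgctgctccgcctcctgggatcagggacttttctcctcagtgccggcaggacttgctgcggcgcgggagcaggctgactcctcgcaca
Col13a1: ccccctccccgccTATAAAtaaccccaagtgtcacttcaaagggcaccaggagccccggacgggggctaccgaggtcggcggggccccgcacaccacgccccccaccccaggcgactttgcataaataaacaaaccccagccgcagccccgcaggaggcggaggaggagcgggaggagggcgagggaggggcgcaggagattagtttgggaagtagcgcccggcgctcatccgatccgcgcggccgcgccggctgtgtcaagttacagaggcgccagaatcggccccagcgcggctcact
Col1a2: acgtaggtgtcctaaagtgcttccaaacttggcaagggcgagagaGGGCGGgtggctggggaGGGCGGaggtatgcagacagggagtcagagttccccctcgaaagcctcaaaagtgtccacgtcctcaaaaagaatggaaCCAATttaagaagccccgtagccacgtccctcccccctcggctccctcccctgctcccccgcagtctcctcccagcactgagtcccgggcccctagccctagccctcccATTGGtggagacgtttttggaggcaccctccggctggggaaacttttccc
Col3a1: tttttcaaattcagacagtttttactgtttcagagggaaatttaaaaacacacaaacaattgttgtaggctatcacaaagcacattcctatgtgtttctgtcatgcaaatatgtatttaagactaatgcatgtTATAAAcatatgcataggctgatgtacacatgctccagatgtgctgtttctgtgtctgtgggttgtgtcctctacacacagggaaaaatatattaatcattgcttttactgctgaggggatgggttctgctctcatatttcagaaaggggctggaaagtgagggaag

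The Col4a1 promoter (chr8:11312777-11313076, minus strand) and the Col4a2 promoter (chr8:11312555-11312854, plus strand) face away from each other and share 78 bp, with start sites 21 bp apart. Neither lay under a peak, and the peak nearest to the Col4a1 start was 2.79 kb away in AKO and 1.24 kb away in WT. The promoters of Col4a4 (chr1:82586800-82587099, minus strand), Col7a1 (chr9:108953336-108953635, plus strand) and Col13a1 (chr10:61979059-61979358, minus strand) were covered over all 300 bases in both libraries. Those of Col1a2 (chr6:4505368-4505667, plus strand) and Col3a1 (chr1:45311288-45311587, plus strand) held no peak. The nearest peak to the Col1a2 start was 0.859 kb away in AKO and 9.88 kb away in WT, and for Col3a1 the distances were 20.4 kb in AKO and 47.3 kb in WT.

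Around the 33 start sites (the most upstream one for genes with several) peaks touched the promoter of 10 genes in AKO (30.3%) and of 15 in WT (45.5%). Over all 16457 protein-coding genes with a start site the shares were 8.18% in AKO and 15.4% in WT. All 10 promoters touched in AKO were touched in WT too, those of Col4a4, Col5a3, Col6a5, Col6a6, Col7a1, Col8a2, Col11a2, Col13a1, Col18a1 and Col25a1. The 5 touched in WT alone were Col8a1, Col15a1, Col19a1, Col24a1 and Col27a1. A peak lay within 1 kb of the start at 20 collagen genes in each library, while over all genes this held for 21.3% in AKO and 31.7% in WT. A CCAAT box was present in 11 of the 33 promoters (33.3%) against 39.1% of all promoters, a GC box in 20 (60.6%) against 47.3%, and a TATA box in 5 (15.2%) against 13.5%. These matches describe letters in the window, not binding.

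**Figure D1:**
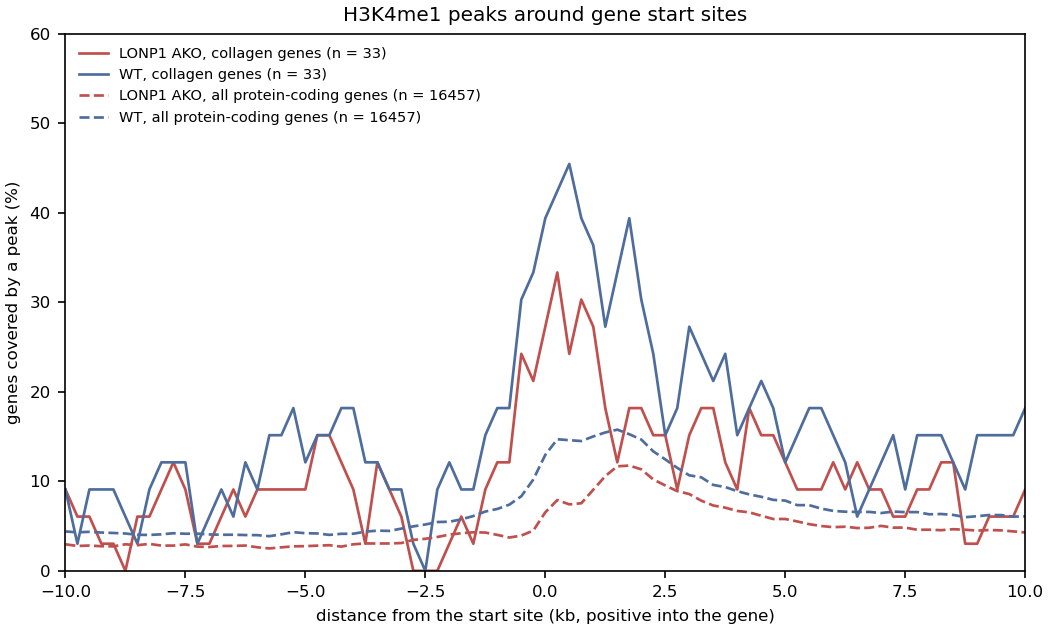
Share of genes whose position at a given distance from the start site lay under a peak, in steps of 0.25 kb, for 33 collagen genes (solid) and 16457 protein-coding genes (dashed), AKO in red and WT in blue. The collagen curves peak just inside the gene, at 33.3% in AKO (0.25 kb) and 45.5% in WT (0.5 kb).

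Over all members, peaks covered 325 kb in AKO and 452 kb in WT, an AKO to WT ratio of 0.718, beside 0.725 over all protein-coding genes. Coverage was less in AKO for 31 members, more for 6 and absent from both libraries for 5. Less coverage was found for 83.8% of the 37 members with a peak, near the 78.3% of all genes with a peak. With genes without a peak counted too, it was found for 73.8% of the 42 members and 55.7% of all genes. More coverage was found for 14.3% of the 42 members, against 15.5% of all genes. No peak was present at 11.9% of members and at 28.9% of all genes. The median difference, AKO minus WT, was -1.13 kb over the members and -0.25 kb over all genes, whose windows are shorter (median 37.5 kb, against 130 kb for the members). By the size rule 2 members, Col1a1 and Col26a1, were lower and none was higher, with 5.56% of all genes lower and 0.237% higher. Of the 28 members with the 2 kb in WT that a call needs, 7.14% were lower, against 14.0% of all such genes. Of all genes with at least 2 kb in AKO, 0.759% were higher. The count of lower genes moved with the peak list, to 10 with peaks of a −log10 q of 5 or more, where 11.5% of all genes were lower, and to 1, Col26a1, with peak lists of equal number, where 4.10% were.

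By type, the fibrillar genes had 108 kb in AKO and 141 kb in WT, a summed AKO to WT ratio of 0.766. The basement membrane genes had 96.5 kb in AKO and 121 kb in WT, a ratio of 0.795. The others had 121 kb in AKO and 190 kb in WT, a ratio of 0.634. Without Col5a1, left out after its values were seen, the fibrillar ratio was 0.654, near that of the others. Pooled by type, the marking was densest at the basement membrane genes, with 15.96 kb in AKO and 20.1 kb in WT per 100 kb of window. It was 8.52 kb in AKO and 11.1 kb in WT at the fibrillar genes, and 3.10 kb in AKO and 4.89 kb in WT at the others. Over all protein-coding genes it was 3.45 kb in AKO and 4.75 kb in WT. The basement membrane density came from Col4a1 and Col4a2, whose windows overlap. Per 100 kb of window Col4a3 had only 1.17 kb in AKO and 0.788 kb in WT, and Col4a4 had 1.56 kb in AKO and 1.61 kb in WT. Among the others, Col15a1 and Col18a1 together had 12.5 kb in AKO and 20.1 kb in WT per 100 kb. With both lists trimmed to equal covered length, the basement membrane ratio turned to 1.14, while the ratio over all genes rose to 0.935. Under that trim 18 members had less coverage in AKO and 13 more, and the matching shares of all genes are not given here. In raw kb, which favours long genes, a few loci held most of the mark. Col5a1, Col4a2, Col4a1, Col27a1 and Col15a1 were the leading 5 in both libraries, with 57.6% of the coverage of all members in AKO and 52.8% in WT. Gene bodies held 273 kb in AKO and 371 kb in WT (ratio 0.736), and the flanks 52.2 kb in AKO and 81.6 kb in WT (ratio 0.639).

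**Figure D2:**
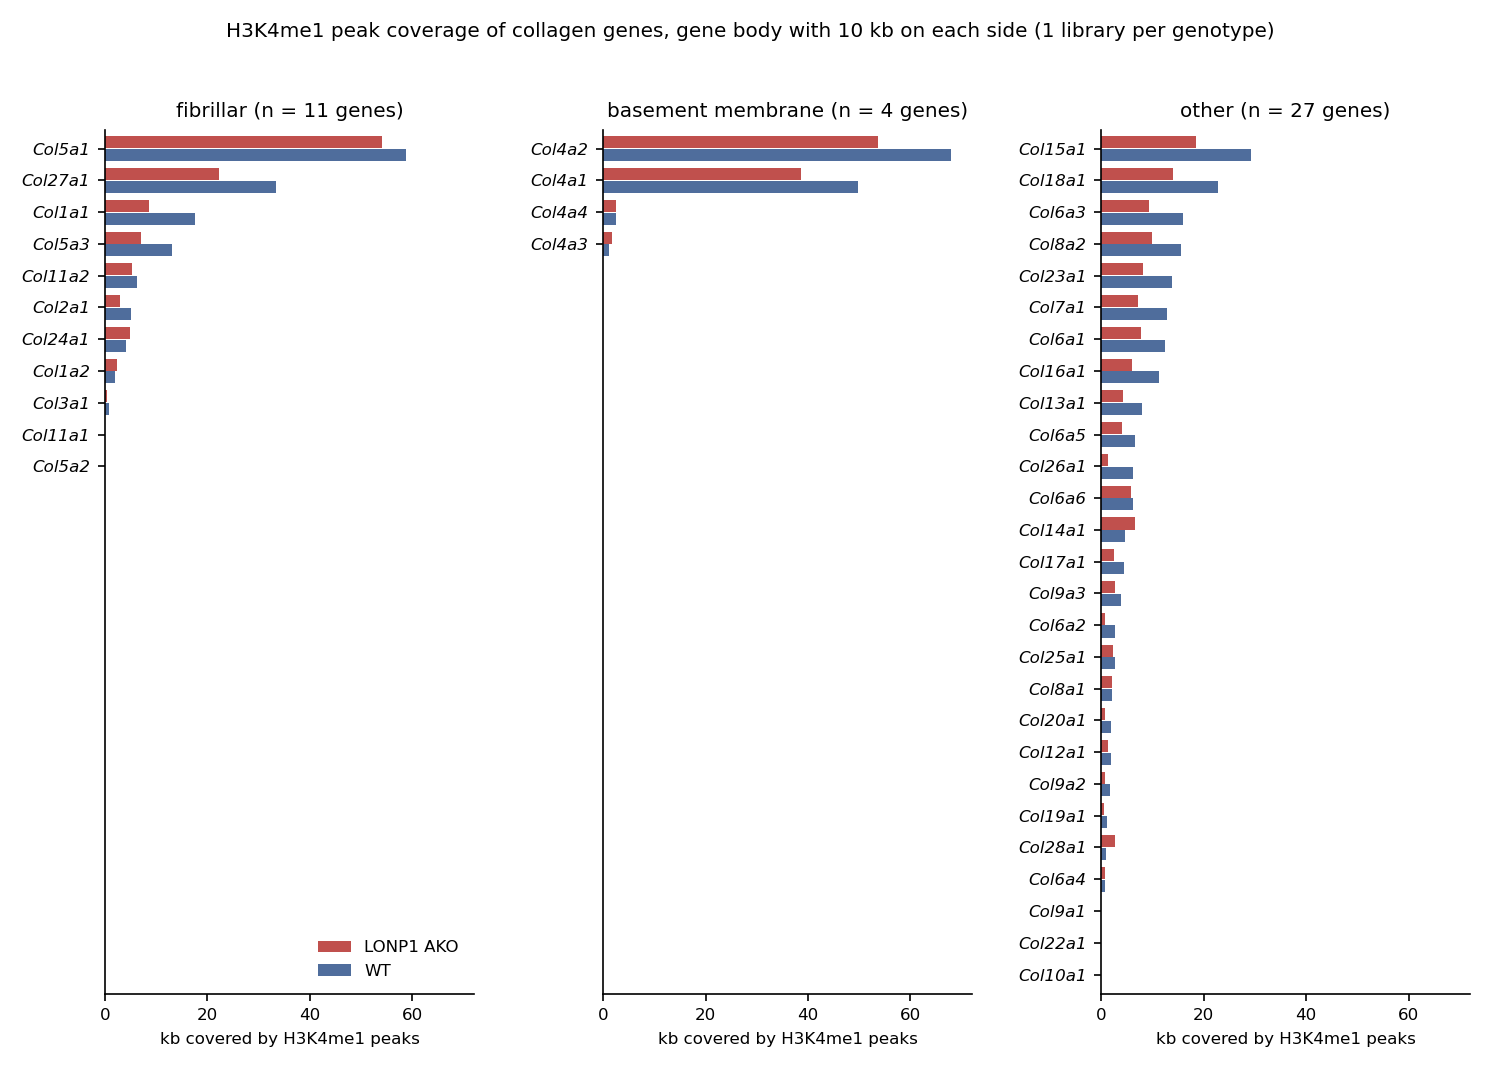
Kb covered by H3K4me1 peaks in the window of each collagen gene, AKO (red) above WT (blue), 1 library each, by type and in order of WT coverage. Coverage is concentrated in Col5a1, Col4a2 and Col4a1, and Col5a2, Col11a1, Col9a1, Col22a1 and Col10a1 have no bar.

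Type I collagen, the main fibril former of most connective tissue, is built from Col1a1 and Col1a2, and the mark was very unequal between them. Col1a1 (chromosome 11, 94936224 to 94953042) had 8.66 kb in AKO and 17.7 kb in WT, a ratio of 0.490. This was the largest relative deficit among fibrillar genes with at least 2 kb in WT, and at a WT to AKO ratio of 2.04 it lay just inside the size rule, which it did not meet with lists of equal number. Per 100 kb of window it had 23.5 kb in AKO and 47.9 kb in WT, more than 96.8% of protein-coding genes in AKO and 99.4% in WT. Its window had 14 AKO peaks and 17 WT peaks, and of 18 merged regions 10 were marked in both libraries, 1 in AKO only and 7 in WT only. The highest summit held 21 fragments in AKO (13.0 to 32.1) and 35 in WT (24.4 to 48.7), so the intervals overlapped. In 9 of the 10 shared regions the AKO summit was the lower one. Inside the gene, at 94946204 to 94949580, 3 AKO peaks faced 1 WT peak. Col1a2 (chromosome 6, 4505618 to 4541543), its partner chain, had 2.31 kb in AKO and 1.98 kb in WT from 5 peaks in each, and per 100 kb of window 4.12 kb in AKO and 3.55 kb in WT. Only 2 of its 5 peaks overlapped between the libraries, and no summit exceeded 19 fragments in AKO or 16 in WT.

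Type III collagen, which co-assembles with type I, is encoded by Col3a1 (chromosome 1, 45311538 to 45349706). It had a single weak peak in each library, 0.366 kb with 13 fragments in AKO and 0.749 kb with 18 fragments in WT. These 2 peaks lay at different places, the AKO one inside the gene and the WT one beyond its end. Next to it Col5a2 (chromosome 1, 45374331 to 45503282), a chain of the fibril-initiating type V collagen, had no peak in either library. The smallest called summit held 10 fragments in both lists, so a weaker mark was not detectable at this depth.

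The other type V chains were strongly marked. Col5a1 (chromosome 2, 27886381 to 28039510) had 54.1 kb in AKO and 58.7 kb in WT, a ratio of 0.921. Per 100 kb of window this was 31.2 kb in AKO and 33.9 kb in WT, more than 98.8% of protein-coding genes in AKO and 97.2% in WT. Nearly all of it lay in the gene body. In the whole window the AKO library had 42 peaks with a median width of 801 bp and a longest of 7638 bp. The WT library had 34 peaks in the window with a median of 841 bp and a longest of 8178 bp. Of 24 regions shared at the locus, 9 held more peaks in AKO and 1 held more in WT. A block at 27912640 to 27928679, 16040 bp wide, was covered by 6 AKO peaks with up to 46 fragments and 3 WT peaks with up to 49. The tallest WT collagen peak stood 9.40 kb inside the gene at 27893181 to 27898094 with 77 fragments (60.8 to 96.2) and a fold enrichment of 15.7. In the same region the AKO summit held 46 fragments (33.7 to 61.4) with a fold enrichment of 10.3. Across the locus 54.2% of shared regions had the lower summit in AKO, and pileup in them stood at a median of 0.956 of WT. Col5a3 (chromosome 9, 20770050 to 20815117), a type V chain prominent in fat and muscle, had 7.07 kb in AKO and 13.1 kb in WT, a ratio of 0.540, and the highest summit held 30 fragments in AKO and 42 in WT.

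Among the minor and cartilage fibril genes, Col27a1 (chromosome 4, 63214009 to 63334991) was the most marked. It had 22.3 kb in AKO and 33.3 kb in WT, a ratio of 0.669. Its highest summit held 33 fragments in AKO (22.7 to 46.3) and 63 in WT (48.4 to 80.6), so these intervals lay apart. Each is the highest of many summits in the window (20 AKO and 25 WT peaks), a selection that the intervals do not cover. How often such intervals lay apart over all genes is not given here. The WT peak, at 63213787 to 63215242, had its summit at -1.17 kb from the start site of the promoter table. Col24a1 had 4.95 kb in AKO and 4.17 kb in WT, from 8 AKO and 5 WT peaks. The cartilage chain Col2a1 had 2.905 kb in AKO, a single peak with 38 fragments, and 4.99 kb in WT, where the highest summit held 43. Col11a2 had 5.23 kb in AKO and 6.2 kb in WT, of which 2.77 kb in AKO and 3.61 kb in WT lay in flanks that also hold the genes Slc39a7 and Rxrb. Col11a1, its partner chain in cartilage, had no peak.

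**Figure D3:**
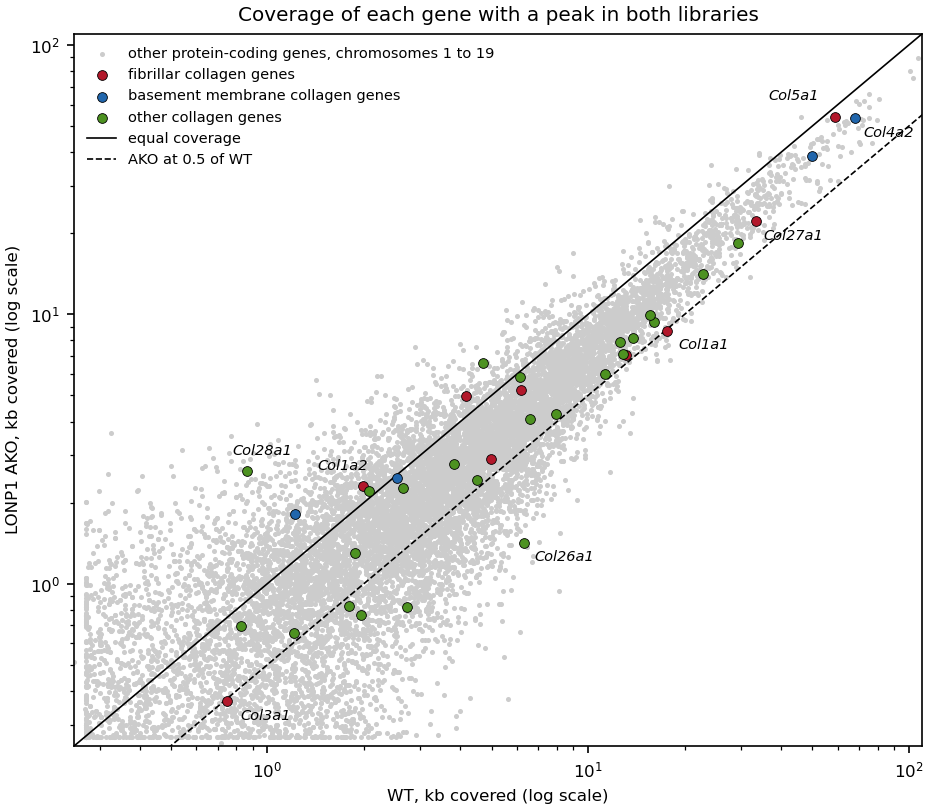
Kb covered in AKO (y axis) against WT (x axis), both on log scales, for every protein-coding gene with a peak in both libraries, with collagen genes coloured by type. Col1a1 and Col26a1 lie below the dashed line at an AKO level of 0.5 of WT and Col5a1 lies close to the line of equal coverage, while Col3a1, Col6a2, Col9a2 and Col20a1, also below the dashed line, differ by too little for the size rule.

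The basement membrane genes split into a densely marked pair and a sparsely marked pair. Col4a1 (chromosome 8, 11198423 to 11312889) and Col4a2 (11312805 to 11449287) encode the chains of the type IV network found in nearly all basement membranes. Col4a2 had 53.6 kb in AKO and 67.9 kb in WT, a ratio of 0.791. Col4a1 had 38.6 kb in AKO and 49.8 kb in WT, a ratio of 0.775. Per 100 kb of window Col4a2 had 34.3 kb in AKO and 43.4 kb in WT, more than 99.2% of protein-coding genes in AKO and 98.9% in WT. Their windows share 20.1 kb around the common start, which held 8.39 kb in AKO and 11.6 kb in WT and is counted in both genes. The highest summits of Col4a2 held 32 fragments in AKO (21.9 to 45.2) and 45 in WT (32.8 to 60.2). Peak numbers differed in opposite directions at the 2 genes, with 68 AKO and 60 WT peaks at Col4a2, and 44 AKO and 57 WT peaks at Col4a1. Of 103 merged regions at the pair, 69 were marked in both libraries, 10 in AKO only and 24 in WT only. In 76.8% of the shared ones the AKO summit was the lower, with a median ratio of pileup of 0.787.

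Col4a3 and Col4a4, the chains of specialised basement membranes such as that of the kidney glomerulus, also start next to each other. Col4a3 (chromosome 1, 82586921 to 82722059) had 1.81 kb in AKO and 1.22 kb in WT, and Col4a4 (82448419 to 82587034) had 2.48 kb in AKO and 2.55 kb in WT. The peak they share at the start was 765 bp long with 24 fragments in AKO (15.4 to 35.7) and 1222 bp long with 32 fragments in WT (21.9 to 45.2). It was the only WT peak in the Col4a3 window. The Col4a3 and Col4a4 start was thus marked with sparsely marked bodies, and the Col4a1 and Col4a2 start was bare with densely marked bodies.

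**Figure D4:**
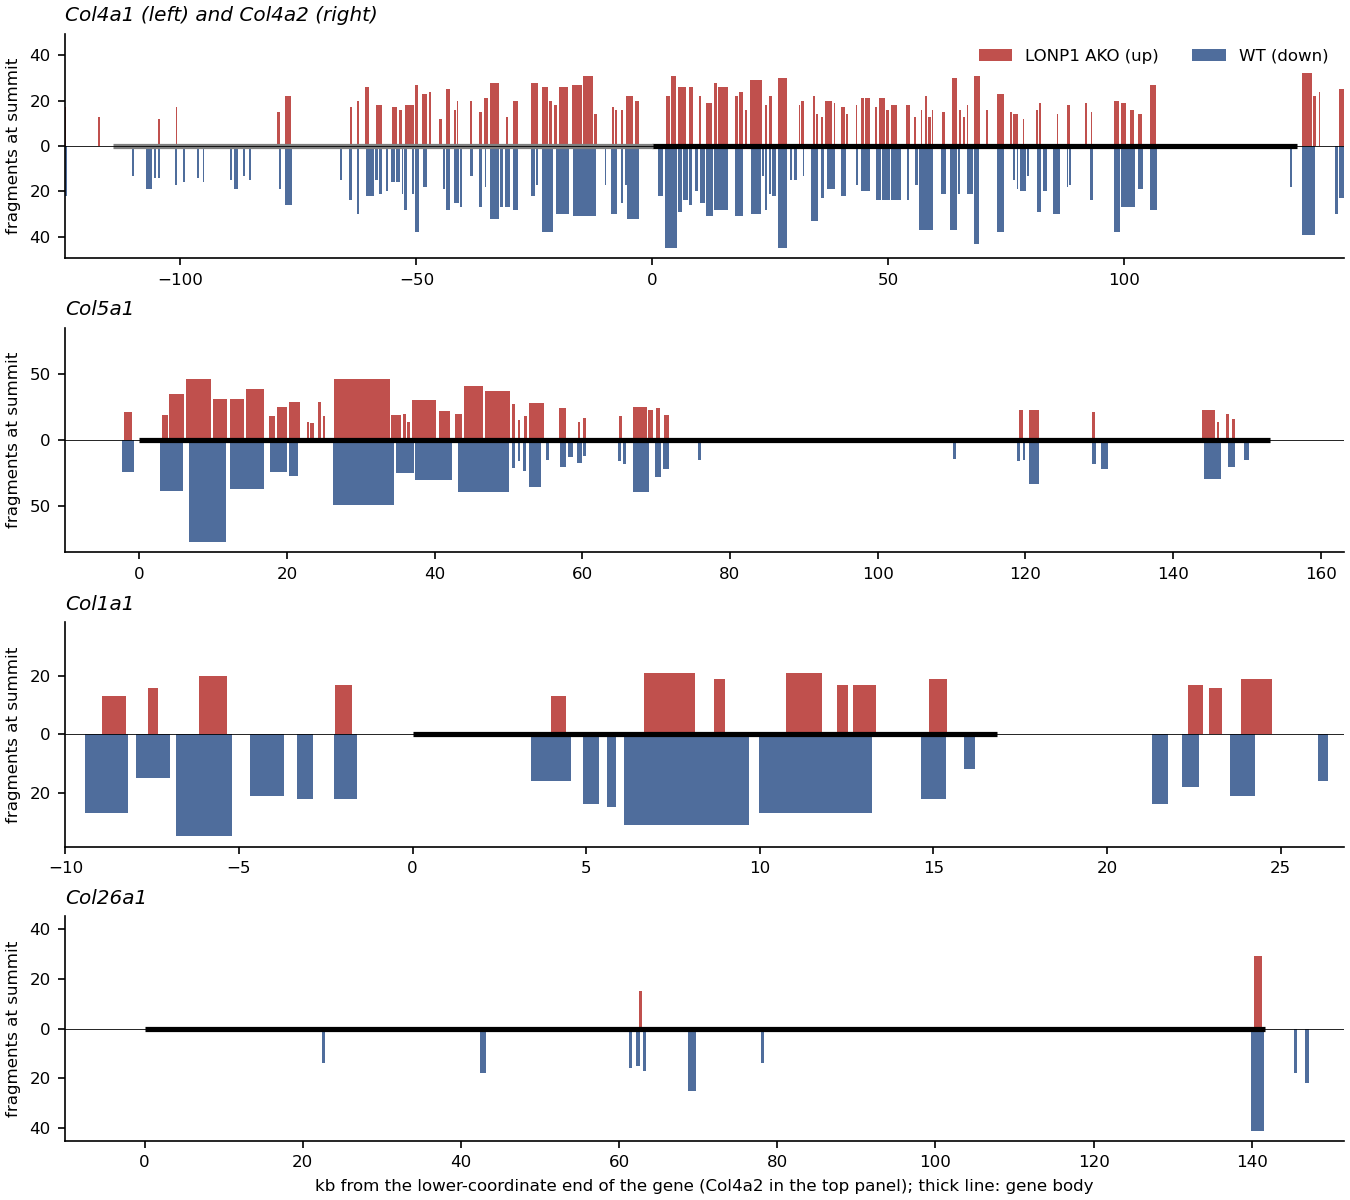
Peaks at Col4a1 with Col4a2, Col5a1, Col1a1 and Col26a1, as bars spanning each peak with its summit fragments as height, AKO upward (red) and WT downward (blue), against kb from the lower-coordinate end of the gene (Col4a2 in the top panel, with Col4a1 as the grey line). The bars stop short of the Col4a1 and Col4a2 start, the 42 AKO bars at Col5a1 face 34 WT bars, and at Col26a1 only 2 AKO bars face 10 WT bars.

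Type VI collagen forms beaded microfilaments that link cells to the matrix and is abundant in fat, where a fragment of the Col6a3 chain is known as endotrophin. All 6 of its genes had less coverage in AKO, as did 78.3% of all genes with a peak. In sum they had 28.7 kb in AKO and 44.8 kb in WT, a ratio of 0.641, beside 0.725 over all protein-coding genes. The ratio was nearer to equal at Col6a6 (0.954) and Col6a4 (0.840). Col6a3 (chromosome 1, 90766860 to 90844001) had 9.40 kb in AKO and 16.0 kb in WT, a ratio of 0.587, and the highest summit held 23 fragments in AKO and 32 in WT. Among WT peaks of the collagen windows with no AKO peak within 1 kb, the highest −log10 q, 8.87, was that of a Col6a3 peak at 90781168 to 90782221 with 24 fragments and of a Col26a1 peak at 136810499 to 136811465 with 25. Col6a1 (chromosome 10, 76708792 to 76726044) had 7.88 kb in AKO and 12.5 kb in WT, and inside the gene body 2.36 kb in AKO and 5.63 kb in WT. Its neighbour Col6a2 (76595756 to 76623630) had 0.819 kb in AKO and 2.73 kb in WT, a ratio of 0.30 with a difference too small for the size rule. The edge of the Col6a2 window cut a shared region at 76632317 to 76637142, so its longest AKO peak, 3147 bp, was counted only in part. The 3 genes of the cluster on chromosome 9 had at most 3.69 kb in AKO and 5.2 kb in WT per 100 kb of window, below Col6a3 with 9.68 kb in AKO and 16.5 kb in WT. Col6a5 had 4.07 kb in AKO and 6.57 kb in WT, Col6a6 had 5.87 kb in AKO and 6.15 kb in WT, and Col6a4 had 0.697 kb in AKO and 0.830 kb in WT. The highest summit held 21 fragments in AKO and 17 in WT at Col6a4, and 32 in AKO and 29 in WT at Col6a5, with overlapping intervals at both.

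The multiplexins, proteoglycan collagens of the basement membrane zone, had 32.5 kb in AKO and 52.1 kb in WT in sum, a ratio of 0.624. Col15a1 (chromosome 4, 47207655 to 47313167) had 18.4 kb in AKO and 29.3 kb in WT from 27 AKO and 34 WT peaks, a difference of -10.9 kb. Col18a1 (chromosome 10, 77052178 to 77166530), the source of endostatin, had 14.1 kb in AKO and 22.8 kb in WT. The ratio was 0.629 at Col15a1 and 0.617 at Col18a1. At Col15a1, 22 of 34 regions were shared, 1 was seen in AKO alone and 11 in WT alone.

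The transmembrane collagens had less coverage in AKO at all 4 genes, as did 78.3% of all genes with a peak. In sum they had 17.1 kb in AKO and 28.9 kb in WT, a ratio of 0.592, beside 0.725 over all protein-coding genes. Col23a1 had 8.14 kb in AKO and 13.8 kb in WT, and Col13a1, a collagen of cell adhesion sites and the neuromuscular junction, had 4.27 kb in AKO and 7.95 kb in WT. The hemidesmosome component Col17a1 had 2.43 kb in AKO and 4.51 kb in WT, and Col25a1 had 2.26 kb in AKO and 2.65 kb in WT. Among the short chain genes, Col8a2 had 9.95 kb in AKO and 15.5 kb in WT, and per 100 kb of window 20.9 kb in AKO and 32.7 kb in WT. Col8a1 had 2.21 kb in AKO and 2.07 kb in WT, and Col10a1, a marker of hypertrophic cartilage, had no peak. Col7a1, the anchoring fibril collagen of skin, had 7.12 kb in AKO and 12.8 kb in WT, of which 4.52 kb in AKO and 7.56 kb in WT lay in flanks that also hold Uqcrc1, Ucn2 and Pfkfb4. Col6a1 and Col8a2, with Col7a1, were the 3 other members with the most coverage per 100 kb of window in WT.

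The fibril-associated collagens (FACIT), which decorate the surface of fibrils, were sparsely marked, with 1.35 kb in AKO and 1.90 kb in WT per 100 kb of window over 9 genes. Col16a1 had 5.98 kb in AKO and 11.3 kb in WT, just outside the size rule at a WT to AKO ratio of 1.88, and next outside were Col13a1 at 1.86 and Col17a1 at 1.85. Col14a1, a collagen of mature fibrils in skin and tendon, had 6.62 kb in AKO and 4.71 kb in WT, a difference of 1.91 kb, while its highest summit held 24 fragments in AKO and 39 in WT. Of its 8 peaks in each library, 3 AKO peaks and 4 WT peaks overlapped the other list. Col12a1 had 1.3 kb in AKO and 1.88 kb in WT, and its window held the AKO peak that had the top −log10 q, 6.59, where no WT peak lay within 1 kb, 313 bp long with 21 fragments (13.0 to 32.1). The cartilage chain Col9a3 had 2.77 kb in AKO and 3.83 kb in WT, and its partner chain Col9a2 had 0.826 kb in AKO and 1.80 kb in WT. Col20a1 had 0.763 kb in AKO and 1.96 kb in WT, in a window that also holds parts of Arfgap1 and Chrna4. Outside other genes it had no coverage in AKO and 0.603 kb in WT. Col19a1 had 0.656 kb in AKO and 1.21 kb in WT. Col9a1 and Col22a1 had no peak.

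The last 2 members differed in opposite directions. Col26a1 (chromosome 5, 136741759 to 136883376) had 1.42 kb in AKO and 6.31 kb in WT, a ratio of 0.224, and was lower by the size rule, which it no longer met with lists of equal covered length. Its 2 AKO peaks both overlapped WT peaks, and 8 of its 10 WT peaks had no AKO partner, each with 14 to 25 fragments. The tallest peak, at the higher-coordinate end of the gene, was present in both with 29 fragments in AKO (19.4 to 41.6) and 41 in WT (29.4 to 55.6). Col28a1 (chromosome 6, 7997100 to 8193709), a collagen found around peripheral nerve, had 2.62 kb in AKO and 0.867 kb in WT, a ratio of 3.03. The difference of 1.76 kb fell short of the size rule, and 6 of its 7 AKO peaks, 270 to 456 bp long with 11 to 18 fragments, lay where WT had none.

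Summits were lower in AKO at most members. Of the 37 members with peaks in both libraries, the highest summit, as pileup scaled to the input, was lower in AKO at 33 (89.2%) and higher at Col1a2, Col6a4, Col6a5 and Col28a1. Over all protein-coding genes with peaks in both libraries it was lower at 83.4%. The median AKO to WT ratio of the highest summit was 0.728 over the members and 0.795 over all such genes. Among 454 merged regions in the collagen windows, 253 were shared (55.7%), 60 were AKO only (13.2%) and 141 WT only (31.1%). Over all regions 48.8% were shared, 17.6% AKO only and 33.6% WT only. In the shared regions the median pileup was 13.6 in AKO and 15.9 in WT, and the AKO pileup was the lower in 77.1% of them, against 71.8% of all shared regions. The median ratio was 0.825, against 0.858 over all shared regions.

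**Figure D5:**
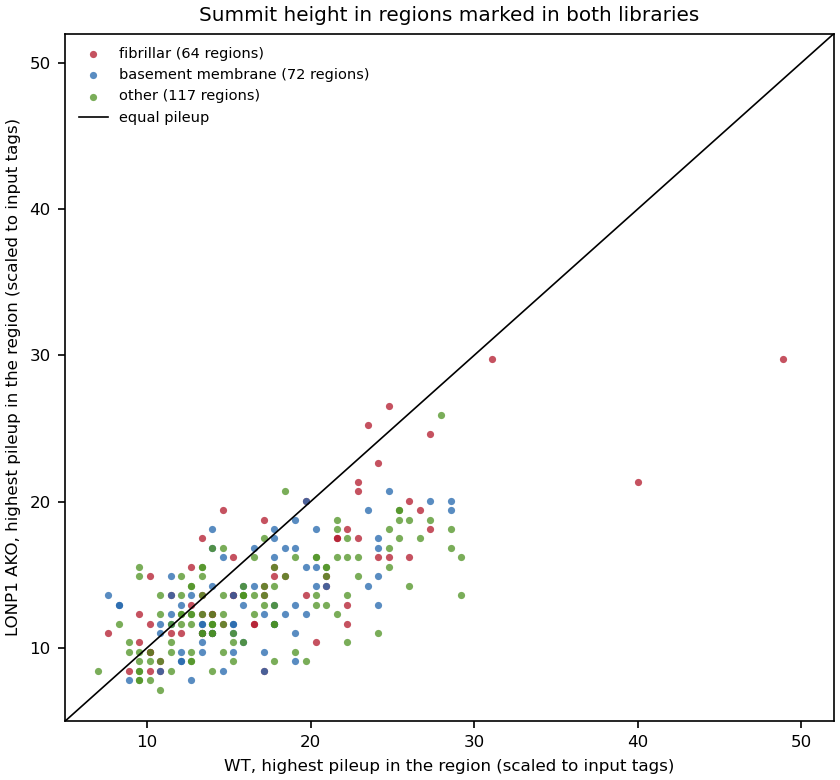
Highest pileup in AKO (y axis) against WT (x axis), scaled to the input, in the 253 regions of collagen windows marked in both libraries, coloured by type. Most points (77.1%) lie below the line of equal pileup, and the 2 far to the right are the tallest WT peaks, at Col5a1 and Col27a1.

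Most AKO peaks in collagen windows had a WT counterpart, and fewer WT peaks had an AKO one. Of 385 AKO peaks 84.4% overlapped a WT peak (exact binomial 95% interval 80.4 to 87.9), against 76.2% of all AKO peaks, and of 421 WT peaks 66.5% overlapped an AKO peak (61.8 to 71.0), against 60.6% of all WT peaks. The intervals cover counting error only, and neighbouring peaks are not independent. The median collagen peak was 603 bp wide in AKO and 706 bp in WT, against 512 bp in AKO and 566 bp in WT over all peaks. Peaks wider than 2 kb numbered 22 in AKO (5.71%) and 59 in WT (14.0%), and over all peaks the shares were 3.85% in AKO and 6.69% in WT. Where a region was shared, the AKO library held more peaks than WT in 55 regions (21.7%) and fewer in 16 (6.32%), and over all shared regions AKO held more in 11.6% and fewer in 4.0%.

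The genes that make, fold, cross-link, cut and bind collagen formed a list of 42. All had a peak. Coverage was less in AKO for 34 of them (80.95%) and more for 8, beside less coverage at 78.3% of all genes with a peak. Of the 42, 7 (16.7%) were lower by the size rule, with 5.56% of all genes lower. None was higher by that rule. The summed coverage was 238 kb in AKO and 313 kb in WT, a ratio of 0.759, beside 0.725 over all protein-coding genes. The median difference was -1.65 kb, beside -0.25 kb over all genes, whose windows were shorter (median 37.5 kb, against 48.9 kb) and less densely marked (in WT 4.75 kb per 100 kb, against 9.72 kb). Of the 31 with at least 2 kb in WT, 22.6% were lower, against 14.0% of all such genes. Some of the 7 lay near the limits of the rule, with an AKO to WT ratio of 0.499 at Colgalt1 and a difference of -2.09 kb at Adamts3. Counts under other peak lists are not given for this set. Those lower were the collagen receptor kinase Ddr1 (2.15 kb in AKO, 6.13 kb in WT), the collagen glycosyltransferase Colgalt1 (2.89 kb in AKO, 5.79 kb in WT) and the procollagen protease Adamts14 (2.40 kb in AKO, 5.10 kb in WT). The integrin chain Itga1 (0.33 kb in AKO, 2.75 kb in WT), the prolyl hydroxylase P3h2 (0.77 kb in AKO, 3.17 kb in WT), the cross-linking enzyme Loxl4 (1.71 kb in AKO, 4.07 kb in WT) and the procollagen protease Adamts3 (no peak in AKO, 2.09 kb in WT) completed the 7. The largest differences in raw kb were at Adamts2, another procollagen protease, with 43.8 kb in AKO and 53.6 kb in WT, and at the integrin chain Itga11 with 16.7 kb in AKO and 24.8 kb in WT. More coverage in AKO was found at the collagen receptor kinase Ddr2 (18.5 kb in AKO, 15.4 kb in WT) and at Itgb1, the common partner of the collagen-binding integrin chains (1.66 kb in AKO, no peak in WT).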

How the data were processed

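H3K4me1 ChIP-seq was analysed in 1 LONP1 AKO and 1 WT adipocyte library. The submitters' processing notes list bcl2fastq, FastQC (0.11.3), Bowtie2 (2.2.5), MACS2 (2.2.1) and mm10, while the file headers name MACS 2.1.1.20160309. Per the file headers, peaks were called for each library separately against the same input, in narrow mode at a q-value of 0.05, with 1 tag kept per position. The title of that input ties it to the AKO library, and its genotype label is wild type. Narrow calling splits broad domains of the mark, so peak numbers and widths depend on it. The deposited pileup signal is scaled to the 9537585 tags of the input, and all values divided by that scale were whole fragments within 0.01. The deposited fold enrichment, −log10 p and −log10 q are the authors' MACS values per peak, used only to describe or rank peaks.

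Positions are mm10 throughout, and genes and promoters come from RefSeq tables of GRCm38.p6. Coverage was computed in Python 3.11.15 using pandas 2.3.3 and numpy 2.4.6, with intervals from scipy 1.17.1. Peaks were shared if they overlapped by at least 1 bp, and merged regions are unions of overlapping peaks. The coverage step and the size rule were tested on simulated data. Members, lists and rules were chosen with earlier results of these data known. Named by rule were the fibrillar, basement membrane and type VI genes, other members by size of difference or density, members without peaks, pathway genes that met the size rule or differed most, and the strongest peaks. The remaining members are given too. The alternatives used stricter peaks, peak lists matched in number or length, joined peaks, other windows and a larger minimum overlap.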

Additional observations from a re-analysis of the deposited data

How the results depend on the processing

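No paired analysis was possible because each genotype has 1 library and the labels give no replicate numbers. Over all members, fibrillar genes, basement membrane genes and other genes, the summed AKO to WT ratios of 0.718, 0.766, 0.795 and 0.634 became 0.566, 0.710, 0.591 and 0.430 with peaks of a −log10 q of 5 or more. At a fold enrichment of 4 or more they were 0.668, 0.764, 0.711 and 0.567. They were 0.764, 0.794, 0.876 and 0.673 with equal numbers of peaks, and 0.741, 0.771, 0.838 and 0.649 with peaks within 1 kb joined. They were 0.736, 0.805, 0.798 and 0.633 in gene bodies, and 0.644, 0.669, 0.718 and 0.596 within 10 kb of the start site of 33 members. With lists of equal covered length they were 0.95, 0.979, 1.14 and 0.798, so the basement membrane genes then had more coverage in AKO. By construction that setting brings the total coverage of both lists together, and the ratio over all genes was then 0.935. At the −log10 q limit the ratio over all genes was 0.554, and at the fold enrichment limit it was 0.695. With equal numbers of peaks the ratio over all genes was 0.775, and with joined peaks 0.741. In gene bodies it was 0.757, and within 10 kb of the start site, over 16457 genes, 0.686. Counting overlapping windows once gave 0.804 for the basement membrane genes.

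By the size rule 2 members were lower as reported (5.56% of all genes), 10 at the −log10 q limit (11.5% of all genes), 6 at the fold enrichment limit (7.04%), 4 with joined peaks (7.37%) and 4 in gene bodies (2.52%). With equal numbers of peaks 1 was lower, Col26a1 (4.10% of all genes), around start sites 1, Col27a1 (3.32%), and with equal length 2, Col1a1 and Col9a3 (2.57%). None was higher under any of these, and few of all genes were. Of 20665 genes, 49 were higher as reported, 16 at the −log10 q limit and 53 at the fold enrichment limit. With equal numbers 102 were higher, with equal length 465, with joined peaks 126, in gene bodies 45, and around start sites 7 of 16457. Members with more coverage in AKO numbered 6 as reported, where 15.5% of all genes had more. They numbered 3 at the −log10 q limit, 10 with equal numbers, 2 of 33 around start sites and 13 with equal length, where 18 had less. The shares of all genes with more coverage under these alternatives are not given here, so the counts are not read as particular to collagen genes. The share of WT peaks overlapping an AKO peak was 50.6% at the −log10 q limit, 59.3% at the fold enrichment limit and 52.5% where an overlap of at least 50% was asked, which left 79.5% of AKO peaks. The median summit ratio of shared regions was 0.809, 0.812 and, with joined peaks, 0.796.

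Chosen after seeing the data, leaving out bases inside other genes gave 0.721, 0.770, 0.804 and 0.632 in the same order. All members without Col4a1 and Col4a2 stood at 0.695, and the fibrillar genes without Col5a1 at 0.654. With no replicates, none of these values has an error between animals. No peak under 10 fragments was called in either list, so weaker marks are out of reach.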

Other observations

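Base composition of the 33 collagen promoters ranged widely. The 10 promoters touched by a peak in both libraries had 58.7 to 71.7% G and C and 10 to 32 CpG dinucleotides (medians 63.3% and 16). The 5 touched in WT alone had 52.3 to 61.7% and 6 to 18 (medians 56.3% and 12), and the 18 touched in neither had 37.7 to 75.0% and 0 to 37 (medians 57.0% and 6). The medians over all promoters were 56.7% and 14. Both the poorest promoter, that of Col3a1 with 37.7% and no CpG, and rich ones such as that of Col5a1 with 75.0% and 34 CpG were among those touched in neither library.

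The peaks over 1 kb from any peak of the other list numbered 36 of 385 in AKO (9.35%) and 85 of 421 in WT (20.2%) within the collagen windows, beside 15.3% in AKO and 26.62% in WT over all peaks. Those in collagen windows had a median of 15 fragments at the summit and at most 29 in AKO, and a median of 17 and at most 32 in WT.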
